A study of Homo sapiens with 15 samples.

Results

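The transcript profiles of THP-1 cells stimulated with E. coli bacterial extracellular vesicles (BEVs) that had been isolated with ϵ-poly-L-lysine (EPL) were compared with those of cells given PBS (NC), over all genes. The libraries were chosen by their labels alone, 3 EPL and 3 NC of the 15 libraries of the study. THP-1 is a human monocytic cell line from an acute leukaemia, and BEVs are membrane particles that bacteria shed into their medium. ϵ-poly-L-lysine is a cationic antimicrobial peptide polymer that pulls BEVs down at a low centrifugal speed. EPL cells received E. coli BEVs at 1 μg/mL of protein and NC cells received PBS only. Both were harvested after 6 h of incubation, and the labels carry day 0. The study's other groups were cells given E. coli BEVs isolated by ultracentrifugation at 1 μg/mL (EUC), and cells given S. aureus BEVs at 10 μg/mL isolated with ϵ-poly-L-lysine (SPL) or by ultracentrifugation. All cells were the same line in the same medium. No library of cells given ϵ-poly-L-lysine alone was analysed here, and the EUC group, whose vesicles were isolated without the polymer, is set beside EPL further on. Nothing in the labels says that the triplicates came from separate cultures. The p-values therefore measure the spread between libraries of the same group, estimated over all 15 libraries, and this spread may be technical.

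The outer membrane vesicles of Gram-negative bacteria carry lipopolysaccharide (LPS), which monocytes sense through CD14 and the TLR4 receptor complex. One arm of this pathway runs through MYD88 and the IRAK kinases to the IκB kinases, releases NF-κB and induces cytokines, chemokines and the inhibitors that later switch the pathway off. The other arm runs through TICAM1 (TRIF) and TBK1 to the interferon regulatory factors, and the interferon β made in this way acts back on the cells through JAK and STAT proteins to induce interferon-stimulated genes. BEVs also carry lipoproteins, peptidoglycan fragments and nucleic acids, which other receptors sense.

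Total counts lay between 14399421 and 15928295 reads in the 6 libraries. Values below are TMM-normalised counts scaled to library size (CPM), given for replicates 1, 2 and 3 of each group in that order, and fold changes are fitted log2 values with their standard error (SE). EPL1 stood apart from EPL2 and EPL3 (chi-square per degree of freedom 18.6 and 20.2, against 2.81 between EPL2 and EPL3 and 2.21 to 4.37 among NC), and its difference followed gene length. Genes with over 10000 exon bases were lower in EPL1, by a median of -0.22 on the log2 scale, and genes with under 2000 were higher, by 0.31. Mitochondrially encoded genes took 4.40, 4.41 and 4.53% of the reads in EPL and 3.71, 3.97 and 3.83% in NC (two-sided exact permutation p = 0.1, the smallest that 3 against 3 libraries allow). Of 13 monocyte and THP-1 markers, 11 passed the filter on low counts and SPI1 was the one called, higher in EPL (1.23 ± 0.13), while CD68 had 3 reads in each group and MEIS1 had 1 in NC and 0 in EPL. Their summed level was 2732 to 3428 CPM in EPL and 2044 to 2100.0 CPM in NC. Markers of other cells were low: T and NK cell markers summed to 28.2 to 32.4 CPM in EPL and 25.5 to 28.5 in NC, with CD3D and CD3G at 0, B cell markers to 16.3 to 27.1 and 9.47 to 11.2, fibroblast and endothelial markers to 7.14 to 9.58 and 2.98 to 3.65, with COL1A2 and CDH5 at 0, and epithelial, erythroid and mast cell markers to at most 4.06 CPM, with EPCAM, HBA1, HBA2 and CPA3 at 0. PAX5, COL1A1, DCN and MS4A2 were called among these markers, and their part in the results was not tested.

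BEV stimulation changed 2498 of the 17198 genes tested (14.5%). In EPL, 1613 genes were higher (9.38%) and 885 were lower (5.15%), by the quasi-likelihood test of edgeR (change of 2-fold or more, Benjamini-Hochberg adjusted p up to 0.01). Here, "rose" and "fell" are used only for genes that passed both. The 3 EPL and 3 NC values did not overlap in 2492 of these genes, against 52.1% of all tested genes (EPL wholly above NC in 26.2% and wholly below in 25.9%). The rises were larger than the falls. Among the 1444 genes that rose and had more than 3 reads in NC the median log2 fold change was 1.99, and 33 of them rose by more than 6 on the log2 scale, 131 by 4 to 6, 545 by 2 to 4 and 735 by 1 to 2. The median fall was -1.44, 14 genes fell by 4 to 6, 165 by 2 to 4 and 706 by 1 to 2, and none fell by more than 6. A further 69 genes that rose had no read in NC and 100 had 1 to 3. For the former the fold is given as a lower bound against 3 reads over the 3 NC libraries, and for the latter as the ratio of summed reads with its 95% exact binomial interval, and both cover counting error only.

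**Figure D1:**
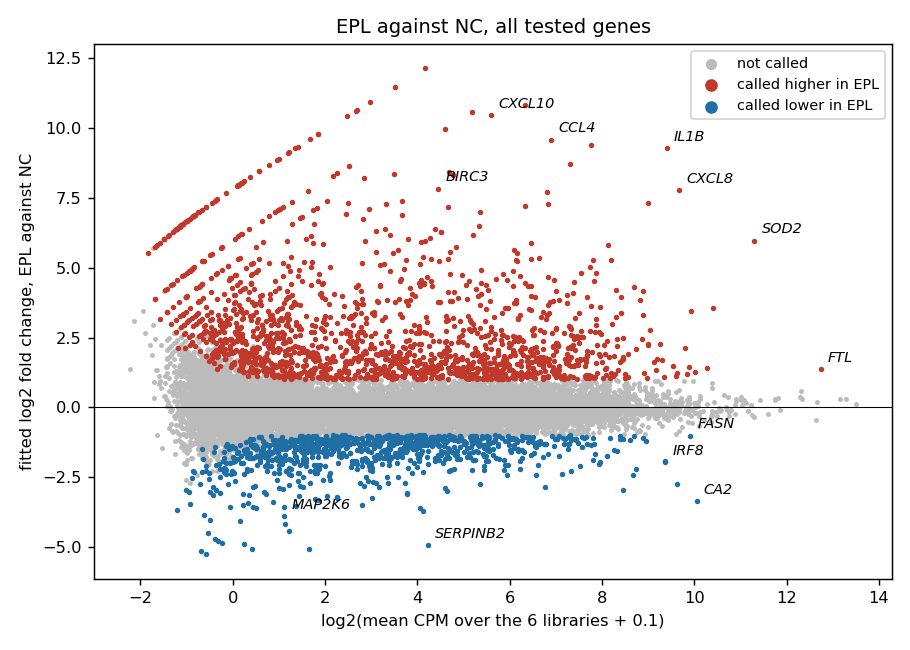
Fitted log2 fold change of EPL against NC (y axis) by log2(mean CPM over the 6 libraries + 0.1) (x axis) for the 17198 tested genes, with 1613 called higher in red and 885 called lower in blue. Rises reach higher values than falls, and the oblique lines of points at the upper left are genes with few or no reads in NC.

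Genes that were silent or nearly silent in NC made up much of the response. Of 2946 genes under 1 CPM in NC, 643 rose (21.8%) and 15 fell (0.509%), although a gene with few or no reads in NC could pass the filter only through a stimulated group, so that its rise is partly how it was selected. Of 2064 genes over 100 CPM in NC, 64 rose (3.10%) and 87 fell (4.22%). The genes that rose took 13.9, 14.2 and 13.8% of all reads in EPL and 3.84, 3.79 and 3.78% in NC. Those that fell took 1.45, 1.43 and 1.43% in EPL and 4.57, 4.45 and 4.42% in NC. Rises and falls were found in protein-coding genes (1269 higher and 707 lower of 13313) and in long non-coding genes (262 and 145 of 2598). Short and long genes rose in close shares: 9.37% of the tested genes with over 10000 exon bases and 9.25% of those with under 2000 rose.

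Toll-like receptor genes and their co-receptors had smaller changes than the cytokine and chemokine genes described further on. Of the LPS and Toll-like receptor genes, 11 of 15 passed the filter, 5 rose and 1 fell, with a median log2 fold change of 0.96, against 0.00 over all tested genes. Without EPL3, NC1 or NC3 in turn, 6 rose, with medians of 1.06, 1.02 and 1.11. TLR4, the LPS receptor, stood at 55.4, 72.5 and 71.7 CPM in EPL and 25.3, 24.8 and 24.3 CPM in NC (log2 fold change 1.42 ± 0.11, adjusted p = 1.53e-08). The endosomal RNA sensors TLR7 and TLR8 had larger rises (3.46 ± 0.42 and 4.42 ± 0.40), and TREM1, a receptor that amplifies Toll-like receptor signals, rose by 2.15 ± 0.17. TLR8 was at 2.62, 2.42 and 1.94 CPM in EPL and 0.064, 0.118 and 0.119 CPM in NC. CD14, the LPS co-receptor, was at 8.66, 7.2 and 6.24 CPM in EPL and 3.2, 3.59 and 4.53 CPM in NC and was not called (log2 fold change 0.96 ± 0.19, adjusted p = 5.66e-04), nor was TLR2, the lipoprotein receptor (log2 fold change 0.65 ± 0.08, adjusted p = 4.68e-06). CD180, an LPS receptor relative that lacks a signalling domain, fell (-1.18 ± 0.25). LY96, the MD-2 subunit that holds LPS in TLR4, had 3 reads in EPL and 2 in NC and was not tested, and neither were TLR3, TLR9 and TLR10.

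Downstream of the receptors, 21 of 22 adaptor and kinase genes were tested, 7 rose and 0 fell (median 0.47). Both adaptors of TLR4 signalling rose, MYD88 by 1.78 ± 0.08 and TICAM1 by 1.63 ± 0.10. IRAK2, a kinase of the MYD88 complex, moved most, from 1.66, 2.06 and 1.85 CPM in NC to 36.6, 38.8 and 38.2 CPM in EPL (log2 fold change 4.34 ± 0.15, adjusted p = 2.72e-13). The kinases MAP3K8 (TPL2), which feeds the ERK pathway, and IKBKE followed (2.24 and 2.20), with TAB2 and TRAF3 at 1.16 and 1.14. The kinases IRAK1, IRAK4, TBK1 and CHUK were not called (log2 fold changes -0.54, 0.32, 0.58 and 0.47).

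NF-κB genes rose together. All 11 of 11 subunits and inhibitors were tested and 8 rose, with a median log2 fold change of 2.71. Among the subunits, NFKB2 went to 678, 578 and 532 CPM in EPL from 29.6, 33.8 and 33.1 CPM in NC (log2 fold change 4.21 ± 0.11, adjusted p = 1.19e-14), with NFKB1 and RELB at 2.71 ± 0.09 and 3.15 ± 0.15. RELA, the main activating subunit, stayed at 105, 104 and 101 CPM in EPL and 98, 102 and 98.8 CPM in NC (log2 fold change 0.05 ± 0.08, adjusted p = 0.659). REL was at 17.8, 63.2 and 59.3 CPM in EPL and 22.1, 18.2 and 18.2 CPM in NC (log2 fold change 1.26 ± 0.44, adjusted p = 0.0288): EPL1 lay with NC and apart from EPL2 and EPL3, and without EPL1 the log2 fold change was 1.65 and REL was called. REL is one of the long genes, whose median difference in EPL1 was -0.22 on the log2 scale. Whether gene length accounts for the low REL value in EPL1 was not tested. The inhibitors NFKBIA (IκBα), NFKBIE and NFKBID and the IκB-like regulators NFKBIZ and BCL3 also rose, by 3.24, 1.74, 1.09, 4.35 and 3.81, although NFKBID was not called without EPL1 (0.98). NFKBIA, which binds NF-κB in the cytoplasm, had 659.7, 539 and 509 CPM in EPL and 57.1, 56.7 and 66.9 CPM in NC, with no overlap between the groups.

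Of the genes that damp the pathway 24 of 24 were tested, 14 rose and 2 fell (median 2.07). TNFAIP3 (A20), a ubiquitin editor that stops NF-κB signalling, had 543, 605 and 571 CPM in EPL and 16, 12.5 and 16 CPM in NC (log2 fold change 5.27 ± 0.12, adjusted p = 3.69e-15). BIRC3 (cIAP2), a ubiquitin ligase of the TNF receptor complex, was among the genes of largest rise, with 40.1, 44.8 and 44.8 CPM in EPL and 0.064, 0.294 and 0.179 CPM in NC (log2 fold change 7.83 ± 0.20, adjusted p = 1.19e-14). The A20-binding proteins TNIP3 and TNIP1, the RNase ZC3H12A (Regnase-1), the repressor ATF3, the phosphatase DUSP1 and the cytokine signalling inhibitors SOCS3 and SOCS1 rose by 6.89, 2.78, 4.49, 4.24, 3.98, 3.52 and 1.28. The STAT5-induced inhibitors SOCS2 and CISH fell (-3.48 ± 0.56 and -1.53 ± 0.17), and IRAK3 (IRAK-M), the kinase-dead IRAK of tolerant monocytes, was not called (0.32, adjusted p = 0.0966).

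Most of the cytokine genes tested rose. Of the interleukins and colony-stimulating factors, 18 of 27 passed the filter, 14 rose and 0 fell, with a median of 3.98 (3.15 with the genes without a count in NC at their lower bound). The filter was run over all 15 libraries. With only the 6 libraries compared, 12 rose and the median was 2.90. IL1B, the pyrogenic cytokine that caspase-1 matures, was at 1390.1, 1390.3 and 1273 CPM in EPL and 1.54, 2.71 and 2.21 CPM in NC (log2 fold change 9.28 ± 0.20, adjusted p = 1.93e-15). IL1A rose from 3 reads in NC to 517 in EPL, a ratio of 181 (95% interval 61.7 to 882). IL1RN, which blocks the receptor of both, had 101, 102 and 95.6 CPM in EPL and 15, 16.6 and 17.9 CPM in NC (2.59 ± 0.10). IL6, the acute-phase cytokine, was found at 0.787, 0.573 and 0.562 CPM in EPL and had no read in NC, at least 10.6-fold higher. Its counts were small, 30 reads over 3 libraries, which leaves its level imprecise. CSF3 (G-CSF) likewise had 32 reads in EPL and none in NC, at least 11.2-fold higher.

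The IL-12 family moved in parts. EBI3, a chain of IL-27 and IL-35, had 526, 405 and 371 CPM in EPL and 0.576, 0.823 and 0.537 CPM in NC (log2 fold change 9.37 ± 0.24, adjusted p = 9.91e-15). IL12B, the p40 chain shared by IL-12 and IL-23, had 17.6, 21.9 and 19.9 CPM in EPL and 0.064, 0.176 and 0.119 CPM in NC (log2 fold change 7.26 ± 0.39, adjusted p = 1.10e-10), and its partner IL23A rose by 5.52 ± 0.22. The partner chain IL12A had 9 reads in EPL and 24 in NC and was not tested, and IL27, the partner of EBI3, was not called (log2 fold change 0.93 ± 0.59, adjusted p = 0.232). IL33, an alarmin of the IL-1 family, had 4.33, 5.99 and 5.0 CPM in EPL and no read in NC, at least 84-fold higher. IL32, IL15, CSF1 and LIF rose by 2.89, 1.92, 2.29 and 2.04, and IL7, with 2 reads in NC, by a ratio of 40 (95% interval 10.7 to 336). IL18, which monocytes hold ready as a precursor, stayed at 9.91, 9.05 and 9.8 CPM in EPL and 8.45, 8.82 and 10.3 CPM in NC (0.06, adjusted p = 0.858), and IL10, the main anti-inflammatory cytokine, had 10 reads in EPL and 0 in NC and did not pass the filter.

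Of the TNF superfamily ligands 13 of 17 were tested, 8 rose and 2 fell (median 1.52). TNF was at 203, 194 and 182 CPM in EPL and 18.3, 19 and 17.3 CPM in NC (log2 fold change 3.40 ± 0.13, adjusted p = 1.81e-12). The lymphotoxin genes LTA and LTB, which lie beside it, rose by 3.18 ± 0.20 and 1.83 ± 0.24, and TNFSF13B (BAFF), TNFSF15 and TNFSF10 (TRAIL) by 2.51, 3.89 and 1.52. TNFSF18 (GITR ligand) had 54 reads in EPL and none in NC, at least 18.9-fold higher, and its receptor TNFRSF18 went from 0.192, 0.235 and 0.0596 to 75.7, 47.7 and 40.3 CPM (8.33 ± 0.40). TNFSF11 (RANKL) and TNFSF14 (LIGHT) fell (-1.35 ± 0.34 and -1.001 ± 0.15) but depended on single libraries. TNFSF11 was not called without EPL1, EPL2, EPL3, NC1 or NC2 (-1.43 to -1.13), and TNFSF14 was not called without EPL1 (-0.92), EPL2 (-0.96) or NC1 (-0.98).

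Most of the chemokine genes tested rose. Of the CXC chemokines, 12 of 16 passed the filter and 11 rose, with CXCL16 the exception (log2 fold change 0.71 ± 0.27, adjusted p = 0.0416), and the median log2 fold change was 6.61 (6.43 with the genes without a count in NC at their lower bound). With only the 6 libraries compared, 10 rose. CXCL8 (interleukin 8), the main neutrophil attractant, was at 1680.3, 1600.2 and 1603 CPM in EPL and 7.81, 6.88 and 7.45 CPM in NC (log2 fold change 7.78 ± 0.17, adjusted p = 1.93e-15). The related neutrophil attractants CXCL1, CXCL2 and CXCL3 rose by 6.48 ± 0.21, 6.18 ± 0.21 and 6.39 ± 0.32, and CXCL6, with 3 reads in NC, by a ratio of 69.8 (95% interval 23.5 to 341). CXCL1, 2 and 3 are near copies of each other, so their reads may be shared. CXCL10, the interferon-induced T cell attractant, had 3 reads in NC and 4536 in EPL, a ratio of 1591 (95% interval 544 to 7716), and of its neighbours CXCL11 rose by 7.11 and CXCL9, without a read in NC, was at least 14.1-fold higher. The lymphoid attractants CXCL12 and CXCL13 were also higher, CXCL12 at 54.4, 51.9 and 46.7 CPM in EPL and 0.192, 0.235 and 0 CPM in NC (log2 fold change 8.41 ± 0.31, adjusted p = 8.20e-13).

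Of the CC and CX3C chemokines 16 of 25 passed the filter, 12 rose and 0 fell, with a median of 5.29. CCL8, a monocyte attractant, was found at 38.4, 36.9 and 32.5 CPM in EPL and without a read in NC, at least 592-fold higher. CCL4 had 252, 244 and 218 CPM in EPL and 0.448, 0.176 and 0.298 CPM in NC (log2 fold change 9.58 ± 0.26, adjusted p = 1.91e-14) and its copy CCL4L2 had 169, 164 and 151 CPM in EPL and 0.128, 0.0588 and 0.0596 CPM in NC (log2 fold change 10.82 ± 0.33, adjusted p = 7.64e-14). These copies, like CCL3 and CCL3L3 (4.60 and 5.27), are nearly identical, so how reads were divided between them is uncertain. CCL5, which was already expressed in NC, had a smaller fold change than CCL4 and CCL8, with 357, 281 and 256 CPM in EPL and 48.6, 51.3 and 53.7 CPM in NC (log2 fold change 2.54 ± 0.12, adjusted p = 2.66e-11). The monocyte attractant CCL2 and the mucosal chemokine CCL20 rose by 7.21 and 6.15, and CCL7, with 1 read in NC, by a ratio of 191 (95% interval 33.9 to 7604). CCL22, CCL23 and CCL28 did not pass (log2 fold changes 0.98, -0.33 and -0.85).

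**Figure D2:**
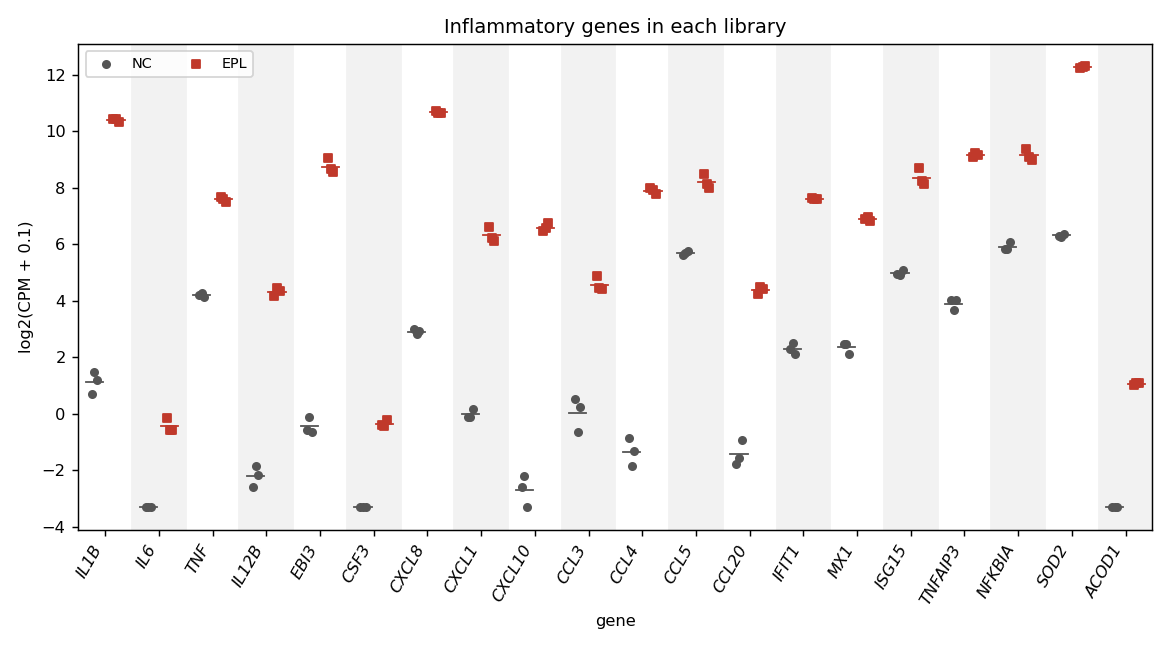
log2(CPM + 0.1) (y axis) of 20 cytokine, chemokine, interferon-stimulated and NF-κB target genes (x axis) in each of the 3 NC libraries (grey circles) and 3 EPL libraries (red squares), with the mean of each group as a bar. In every gene shown the 3 EPL libraries lie above the 3 NC libraries, and points near -3.3 are genes without a read.

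The sequences just before these genes were examined because they are where the factors above bind. RefSeq gave the 250 bases before the transcript start for 11432 of the tested genes (16526 promoters, GRCh38.p14). An NF-κB-type word, GGG, any 2 bases and TTTCC, on either strand, stood in 2.01% of the promoters of all tested genes, in 4.25% of those that rose and in 1.54% of those that fell, and in 26.5% of the 49 promoters of cytokine, chemokine and NF-κB genes that rose. An AP-1-type word, TGANTCA, stood in 4.62% of all promoters, 8.94% of those that rose and 4.38% of those that fell. It stood in 22.45% of the same 49 promoters, so these were not set apart by the NF-κB-type word alone. A looser form with GG in place of GGG, which takes in the first and was searched after promoter matches were seen, stood in 6.03%, 10.1% and 5.56%, and in 40.8% of those 49. A match is a description of these letters and not a binding site. IL6 had no read in NC, so its fitted change has no firm place in an order of size. CXCL1, CXCL3 and IL6, chosen by fitted change among marked cytokine and chemokine genes with the first word, and CXCL8 with the looser one, are printed here 5′ to 3′, ending at the base before the start, with the word in capitals.
CXCL1 (chr4:73869143-73869392, plus strand): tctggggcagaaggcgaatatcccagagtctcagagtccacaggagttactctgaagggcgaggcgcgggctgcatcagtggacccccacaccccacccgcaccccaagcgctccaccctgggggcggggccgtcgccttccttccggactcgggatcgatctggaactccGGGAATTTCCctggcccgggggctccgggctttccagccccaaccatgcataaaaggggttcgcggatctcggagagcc
CXCL3 (chr4:74038690-74038939, minus strand): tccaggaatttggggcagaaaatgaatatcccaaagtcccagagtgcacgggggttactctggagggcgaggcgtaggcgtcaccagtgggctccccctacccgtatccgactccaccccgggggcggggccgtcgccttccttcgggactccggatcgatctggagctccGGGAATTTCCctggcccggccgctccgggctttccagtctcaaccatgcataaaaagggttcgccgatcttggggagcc
IL6 (chr7:22726950-22727199, plus strand): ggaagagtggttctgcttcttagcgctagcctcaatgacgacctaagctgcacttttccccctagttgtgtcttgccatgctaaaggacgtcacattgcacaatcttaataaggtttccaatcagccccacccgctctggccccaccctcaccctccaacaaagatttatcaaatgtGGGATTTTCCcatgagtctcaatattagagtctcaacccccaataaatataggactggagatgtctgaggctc
CXCL8 (chr4:73740319-73740568, plus strand): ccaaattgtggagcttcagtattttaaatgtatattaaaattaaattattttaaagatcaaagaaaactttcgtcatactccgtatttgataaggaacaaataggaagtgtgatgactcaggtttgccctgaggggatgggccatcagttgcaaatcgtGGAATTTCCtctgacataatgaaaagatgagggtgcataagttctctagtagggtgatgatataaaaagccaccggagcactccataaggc
CXCL1 and CXCL3 carried the word at the same distance, with its first base 79 bases before the start, IL6 at 73 and CXCL8 at 91.

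Nearly all of the interferon-stimulated genes tested rose. Of 42 listed genes 40 passed the filter and 37 rose, with a median log2 fold change of 3.45. IFIT1, which binds viral RNA ends, had 196, 196 and 193 CPM in EPL and 4.8, 5.53 and 4.17 CPM in NC (log2 fold change 5.33 ± 0.14, adjusted p = 1.04e-14). MX1, a GTPase that blocks viruses, had 118, 123 and 113 CPM in EPL and 5.44, 5.47 and 4.23 CPM in NC (log2 fold change 4.55 ± 0.12, adjusted p = 1.04e-14), and ISG15, a ubiquitin-like modifier, had 416, 298 and 277 CPM in EPL and 30.3, 30.2 and 33.7 CPM in NC (log2 fold change 3.39 ± 0.24, adjusted p = 3.67e-09). The RNA sensors DDX58 (RIG-I) and IFIH1 (MDA5), the oligoadenylate synthetases OAS1, OAS2 and OAS3, and USP18, which ends interferon signalling, rose by 3.69, 3.51, 3.84, 3.94, 4.15 and 3.80. BST2, a tether of budding viruses, was not called (log2 fold change 0.72 ± 0.16, adjusted p = 0.00195). IFNB1, the gene for interferon β itself, stood at 0.919, 0.51 and 0.437 CPM in EPL and 0.192, 0.118 and 0 CPM in NC and missed the threshold (log2 fold change 2.52 ± 0.87, adjusted p = 0.0287).

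The guanylate-binding proteins, which attack vacuoles and LPS-coated bacteria, rose with them: 6 of the 9 interferon-inducible GTPase genes were tested and 5 rose. GBP1 had 2 reads in NC and 216 in EPL, a ratio of 114 (95% interval 31.1 to 944), and GBP5 and GBP2 rose by 6.04 ± 0.19 and 5.24 ± 0.15. Among interferon regulatory factors (9 of 9 tested) IRF7, IRF9, IRF2 and IRF1 rose (2.92, 2.13, 1.89 and 1.40) and IRF8, a factor of monocyte lineage choice, fell from 1029.6, 1063 and 1057 to 267, 265 and 279 CPM (log2 fold change -1.96 ± 0.09, adjusted p = 1.49e-11). IRF3, which is activated by phosphorylation, was not called (-0.37, adjusted p = 0.0363). Of 16 JAK and STAT pathway genes 15 were tested and 7 rose. STAT2, which carries the interferon signal, rose by 2.72 ± 0.11, STAT5A and STAT4 by 3.15 ± 0.10 and 5.62 ± 0.20, and IL10RA, the IL-10 receptor chain, by 4.82 ± 0.14, while STAT3, JAK1 and IFNAR1 were not called (0.30, 0.38 and 0.58).

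An interferon-type word, GAAA, any 2 bases and GAAA, on either strand, stood in 55.8% of the 43 promoters of interferon-stimulated genes that rose, in 5.75% of the promoters of all genes that rose, in 2.13% of those that fell and in 2.55% of the promoters of all tested genes. Among marked members of the interferon-stimulated, GTPase and regulatory factor lists whose promoter held the word, GBP1 and IFIT1 had the largest fitted rises, and their promoters are shown with the word in capitals.
GBP1 (chr1:89065209-89065458, minus strand): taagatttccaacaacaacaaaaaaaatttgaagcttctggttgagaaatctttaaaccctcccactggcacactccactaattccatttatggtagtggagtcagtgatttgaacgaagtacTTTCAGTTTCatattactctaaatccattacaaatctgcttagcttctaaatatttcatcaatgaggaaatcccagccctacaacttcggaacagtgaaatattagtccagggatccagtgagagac
IFIT1 (chr10:89392373-89392622, plus strand): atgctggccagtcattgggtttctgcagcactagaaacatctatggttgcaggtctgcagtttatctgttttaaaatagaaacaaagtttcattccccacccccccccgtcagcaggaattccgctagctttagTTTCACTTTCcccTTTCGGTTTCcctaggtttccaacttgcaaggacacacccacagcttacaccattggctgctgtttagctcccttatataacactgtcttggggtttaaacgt
In IFIT1 the word occurred at 116 and again at 103 bases before the start, and in GBP1 at 127.

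The immediate-early genes that were called mostly rose. Of 20 of 20 tested AP-1, EGR and ATF genes 11 rose and 1 fell. EGR2, an early growth response factor, had 32.3, 33.8 and 28.2 CPM in EPL and 1.34, 1.41 and 1.85 CPM in NC (log2 fold change 4.35 ± 0.13, adjusted p = 4.16e-14). IER3, JUN and JUNB rose by 4.53, 2.86 and 1.30, while EGR1 was not called (-0.69, adjusted p = 3.41e-05) and FOSL2 fell (-1.36 ± 0.16). Of the dual-specificity phosphatases, which remove phosphate from MAP kinases, 5 of 14 rose, with DUSP1, DUSP6 and DUSP4 at 3.98, 3.74 and 2.87, and DUSP7 fell (-1.36 ± 0.09). None of the 16 MAP kinases and their kinases rose, and MAP2K6, an activator of p38, fell from 4.03, 4.35 and 3.22 to 0, 0.51 and 0.25 CPM (log2 fold change -3.88 ± 0.48, adjusted p = 4.53e-06).

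Inflammasome genes went both ways, 8 up and 3 down of 19 tested, but those that rose numbered 5 without EPL2, EPL3 or NC1 and 4 with library size alone or upper-quartile scaling. AIM2, a DNA sensor, had 1 read in NC and 19 in EPL, a ratio of 20 (95% interval 3.18 to 831). CASP1, which matures IL-1β, rose by 1.21 ± 0.10, and CASP4, which senses LPS in the cytoplasm, by 1.03 ± 0.08, the latter not called without EPL3 (0.99). PYCARD (ASC), the adaptor of these complexes, fell from 57.5, 66 and 67.9 to 31.3, 21.6 and 17.9 CPM (log2 fold change -1.44 ± 0.23, adjusted p = 6.28e-05), and NLRP1 and NLRP12 fell too (-1.40 and -1.28). NLRP3 was not called (0.19, adjusted p = 0.0623). Among survival and death genes 9 of 22 rose and 1 fell: BCL2A1, an NF-κB-induced BCL2 relative, had 38.6, 36.7 and 38.2 CPM in EPL and 0.384, 0.529 and 0.775 CPM in NC (log2 fold change 6.04 ± 0.33, adjusted p = 1.32e-10), CFLAR (c-FLIP), an inhibitor of caspase-8, rose by 1.59 ± 0.13, and BCL2 itself fell (-1.65 ± 0.11).

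Among the genes with which antigen-presenting cells engage T cells, most of the tested co-stimulation genes rose, while most of the MHC genes were not called. Of the co-stimulation and maturation genes 17 of 18 were tested and 15 rose (median 3.83). CD80, a ligand of CD28, had 2 reads in NC and 671 in EPL, a ratio of 353 (95% interval 97.3 to 2920.4), whereas CD86, its partner, was not called (log2 fold change 0.75 ± 0.48, adjusted p = 0.234). SLAMF7 was at 305, 327 and 312 CPM in EPL and 0.704, 0.765 and 0.775 CPM in NC (log2 fold change 8.70 ± 0.16, adjusted p = 4.05e-16), CD40 at 138, 128 and 125 CPM in EPL and 4.99, 4.12 and 4.29 CPM in NC (log2 fold change 4.87 ± 0.13, adjusted p = 2.36e-14), and CD83, a maturation marker, at 109, 117 and 120.1 CPM in EPL and 8.0, 12.2 and 9.48 CPM in NC (log2 fold change 3.54 ± 0.17, adjusted p = 2.22e-11). LAMP3 and CD274 (PD-L1) rose by 6.29 and 4.37, and CCR7, which guides cells to lymph nodes, had 64 reads in EPL and none in NC, at least 22.4-fold higher. Among MHC class I genes 4 of 16 rose (9.38% of all tested genes did), among them the peptide transporter TAP1 (2.54 ± 0.07), while HLA-B and B2M did not reach 2-fold (0.93 and 0.95). Of the class II genes 2 of 12 rose, the master regulator CIITA and HLA-DRA (1.98 ± 0.27 and 1.67 ± 0.18), and CD74 was not called (0.47).

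Surface receptors for chemoattractants, lipids and microbes changed in both directions. Among chemoattractant receptors 15 of 18 were tested, 9 rose and 2 fell. Those that rose numbered 7 without EPL1, EPL2 or NC3 and 8 without EPL3, NC1 or NC2. The receptors of complement fragments, C5AR1 and C3AR1, and of formylated bacterial peptides, FPR1, rose by 2.94, 3.79 and 2.77. FPR1 overlaps FPR2 and FPR3 on the opposite strand, so their reads may be mixed. CXCR4, a receptor for CXCL12, fell from 83.3, 88.8 and 84.7 to 24.4, 25.4 and 22.3 CPM (log2 fold change -1.83 ± 0.08, adjusted p = 1.30e-11), and CXCR2 fell as well (-1.57 ± 0.16), while CCR2 stayed at 285, 306 and 311 CPM in EPL and 298, 319 and 304 CPM in NC (-0.03). Of purinergic and lipid receptors 10 of 15 rose, led by the adenosine receptor ADORA2A, with 97 reads in EPL and none in NC (at least 34-fold higher), and including HCAR2, GPR84 and P2RX7 (2.62, 2.16 and 1.84). HCAR2 and its copy HCAR3 may share reads.

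Of the C-type lectins and Siglecs 9 of 19 were tested, 6 rose and 1 fell. CLEC7A (dectin-1), a receptor of fungal glucans, had 15.2, 13.6 and 13.7 CPM in EPL and 0.32, 0.235 and 0.119 CPM in NC (log2 fold change 5.94 ± 0.32, adjusted p = 1.05e-10), and CLEC12A, an inhibitory receptor of leukaemic myeloid cells, had 0.787, 1.27 and 1.81 CPM in EPL and 8.13, 6.41 and 6.68 CPM in NC (log2 fold change -2.44 ± 0.32, adjusted p = 8.92e-06). Their directions were opposite, with no overlap between EPL and NC in either. CLEC4E (Mincle) had 17 reads in EPL and 0 in NC and did not pass the filter. Among 16 of 21 tested scavenger and phagocytic receptors, OLR1, STAB1, CD36 and MERTK rose, OLR1 with a ratio of 297 (95% interval 52.8 to 11759) and CD36 by 1.77 ± 0.09, and SCARB1, the HDL receptor, fell (-1.32 ± 0.07).

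Adhesion and matrix genes held some of the largest changes in both directions. Of the adhesion genes 21 of 23 were tested, 11 rose and 2 fell: ICAM1, a ligand of leukocyte integrins, had 205, 246 and 225 CPM in EPL and 1.73, 1.59 and 1.07 CPM in NC (log2 fold change 7.26 ± 0.18, adjusted p = 8.50e-15), VCAM1 had 517 reads in EPL and none in NC (at least 181-fold higher), and SELPLG, the P-selectin ligand, fell (-1.93 ± 0.11). Of the plasminogen and matrix genes 15 of 23 rose and 1 fell. TNFAIP6 (TSG-6), a hyaluronan-binding protein, had a ratio of 1796 (95% interval 497 to 14834) and MMP9, a gelatinase, of 1188 (95% interval 328 to 9813). TFPI2, a protease inhibitor, had no read in NC and was at least 73.9-fold higher, and THBS1 rose by 6.998 ± 0.22. SERPINB2 (PAI-2), an inhibitor of urokinase, went the other way, with 1.05, 1.47 and 0.999 CPM in EPL and 30.3, 37.8 and 40.4 CPM in NC (log2 fold change -4.94 ± 0.22, adjusted p = 6.65e-12). Of the complement and acute-phase genes 6 of 15 rose and 2 fell, among them C3 and PTX3 up (2.23 and 3.18) and C1S down (-2.15).

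Among the genes that rose, the most abundant were FTL, SOD2, TNFAIP2, PKM and FTH1. SOD2, the mitochondrial superoxide dismutase, had 4809, 4987 and 5055 CPM in EPL and 78.2, 76.9 and 82.3 CPM in NC (log2 fold change 5.97 ± 0.13, adjusted p = 1.94e-15), and TNFAIP2 had 2571, 2619 and 2341 CPM in EPL and 216, 218 and 207 CPM in NC (log2 fold change 3.56 ± 0.09, adjusted p = 9.40e-15). The ferritin chains FTH1 and FTL, which store iron, rose by 3.43 ± 0.19 and 1.36 ± 0.15, with FTL at 11504, 9121 and 8753 CPM in EPL and 3739.6, 3822 and 3906 CPM in NC. Both have many processed pseudogenes that can take up reads. In the oxidant and antioxidant list 11 of 21 rose and 1 fell. Among them were the NADPH oxidase subunits CYBB and NCF1 (3.57 and 2.17, NCF1 with near-identical pseudogenes), HMOX1, SLC7A11, TXNRD1, SRXN1, GCLM and NQO1, and catalase (CAT) fell (-1.57 ± 0.07). HMOX1, the haem-degrading enzyme, had 868, 756 and 734 CPM in EPL and 41.3, 38.6 and 40.4 CPM in NC (log2 fold change 4.29 ± 0.13, adjusted p = 4.78e-14). MT2A, a zinc-binding metallothionein, rose by 4.04 ± 0.28, with MT1E (1.34) among 6 tested metallothioneins, and in the metal-handling list 5 of 10 rose, with the zinc importer SLC39A8 (1.55), while SLC11A1 (NRAMP1) fell (-1.65 ± 0.12).

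Most of the tested enzymes linked to macrophage activation rose. Of the immunometabolic enzymes 15 of 18 were tested and 10 rose: ACOD1, which makes itaconate, and IDO1, which degrades tryptophan, had 93 reads each in EPL and none in NC, both at least 32.6-fold higher, and KYNU, GCH1 and NAMPT rose by 3.78 ± 0.11, 3.29 ± 0.15 and 2.84 ± 0.09. Of 21 glycolysis genes 3 rose (9.38% of all tested genes did), the transporters SLC2A6 and SLC16A3 (4.52 and 1.47) and PKM, at 1902, 1772 and 1708 CPM in EPL and 646, 661 and 697 CPM in NC (log2 fold change 1.42 ± 0.08, adjusted p = 1.24e-10). GAPDH stayed at 720.3, 670.1 and 688 CPM in EPL and 668, 686 and 705 CPM in NC (0.01) and LDHA was not called (-0.73, adjusted p = 1.19e-06). None of the 23 nuclear TCA cycle and respiratory chain genes was called by edgeR or DESeq2 (12 at an unadjusted edgeR p of at most 0.05), with a median of -0.23 and a range of -0.87 to 0.19. In the cholesterol and fatty acid synthesis list 3 of 21 fell and 0 rose, among them SCD from 234, 222 and 224 to 62.6, 89.5 and 91.7 CPM (log2 fold change -1.48 ± 0.12, adjusted p = 3.17e-08) and FASN by -1.01 ± 0.12 (FASN was not called without EPL3 (-0.99) or NC1 (-0.97)), while the sterol enzyme FDFT1 was not called (-0.72). Of 11 eicosanoid genes PTGS2 (COX-2), PTGES, PTGER2 and ALOX5AP rose, PTGS2 to 12.9, 13.6 and 12.4 CPM from 1.09, 1.06 and 0.835 (log2 fold change 3.70 ± 0.22, adjusted p = 3.65e-10), and LTA4H fell (-1.002 ± 0.14) but was not called without EPL2 (-0.96), EPL3 (-0.99) or NC1 (-0.97).

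Few proliferation genes passed both thresholds, with 2 of 35 called (14.5% of all tested genes were) and a median of -0.01. Without the fold threshold 6 were higher and 7 lower, against 2755 and 2271 of all 17198 tested genes. An unadjusted edgeR p of at most 0.05 was found in 22 of the 35, against 8094 of all tested genes. The 2 that rose were CDKN1A (p21), an inhibitor of cyclin-dependent kinases, at 325, 294 and 287 CPM in EPL and 59.4, 60.4 and 64.6 CPM in NC (log2 fold change 2.30 ± 0.08, adjusted p = 6.65e-13), and CCND1 (1.17 ± 0.09). MKI67 was at 379, 709.8 and 626 CPM in EPL and 467, 434 and 388 CPM in NC and was not called (log2 fold change 0.41 ± 0.26, adjusted p = 0.236), with EPL1 below NC and EPL2 and EPL3 above it. In the ribosome biogenesis and MYC list 2 of 21 rose and 1 fell, close to the shares of all tested genes (9.38% and 5.15%). MYC fell just past 2-fold (log2 fold change -1.03 ± 0.09, adjusted p = 4.27e-08) and was not called without EPL3 (-0.99), and MXD1, its antagonist, rose (2.81 ± 0.13). TERT, the telomerase subunit, went from 32.4, 31.2 and 28 to 2.36, 2.29 and 2.93 CPM (log2 fold change -3.59 ± 0.21, adjusted p = 3.61e-10). None of 29 ribosomal protein genes and none of 12 reference genes was called by edgeR or DESeq2, with 2 and 6 at an unadjusted edgeR p of at most 0.05.

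Myeloid lineage factors changed in both directions. In the myeloid and leukaemic factor list 32 of 33 genes were tested, 12 rose and 5 fell. The largest fall in this list, -3.59, equals that of TERT, the telomerase subunit described above. MYB, GFI1 and ID1 fell by 1.52 ± 0.07, 1.95 ± 0.08 and 1.21 ± 0.21 on the log2 scale, with MYB at 156, 157 and 164 CPM in EPL and 458, 452 and 459 CPM in NC. BCL6, NR4A3, NR4A2, MAF and KLF6 rose by 3.87, 3.87, 2.12, 2.14 and 1.88. CEBPA, a granulocyte and monocyte factor, was not called (log2 fold change -0.57 ± 0.09, adjusted p = 4.37e-05). In the list of granule and effector proteins 3 of 17 rose (9.38% of all tested genes did), the calprotectin chains S100A8 and S100A9 and the related S100A12. S100A8 was at 53.9, 34 and 33.7 CPM in EPL and 8.0, 9.18 and 11.3 CPM in NC (log2 fold change 2.09 ± 0.23, adjusted p = 1.26e-06). The granule peroxidase MPO fell (-1.31 ± 0.18), and lysozyme (LYZ) stayed at 90.5, 83.3 and 78.1 CPM in EPL and 90.5, 89.4 and 91.3 CPM in NC (-0.11).

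Stress, hypoxia and lipid target genes are read against the 14.5% called over all tested genes. Of 20 unfolded protein and integrated stress genes PPP1R15A rose (1.90 ± 0.11), the serine synthesis enzymes PSAT1 and PHGDH and the chaperone HSPB1 fell (-1.58 ± 0.11, -1.08 ± 0.13 and -1.01 ± 0.19, the last not called without EPL2 (-0.93), EPL3 (-0.90) or NC3 (-0.99)), and HSPA5 and DDIT3 were not called (0.17 and -0.32). Of 13 hypoxia genes 4 rose, among them ADM, VEGFA and HIF1A (2.93, 1.73 and 1.31). The number that rose was 3 without EPL1, EPL3, NC2 or NC3 and 5 without NC1. Of 14 LXR and PPAR target genes the cholesterol exporter ABCA1 and CD36 rose (1.87 ± 0.22 and 1.77 ± 0.09), against a list median of -0.40. Among 13 mitochondrially encoded genes none was called, with a median of 0.29 and a range of 0.03 to 0.43, while 10 had an unadjusted p of at most 0.05.

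**Figure D3:**
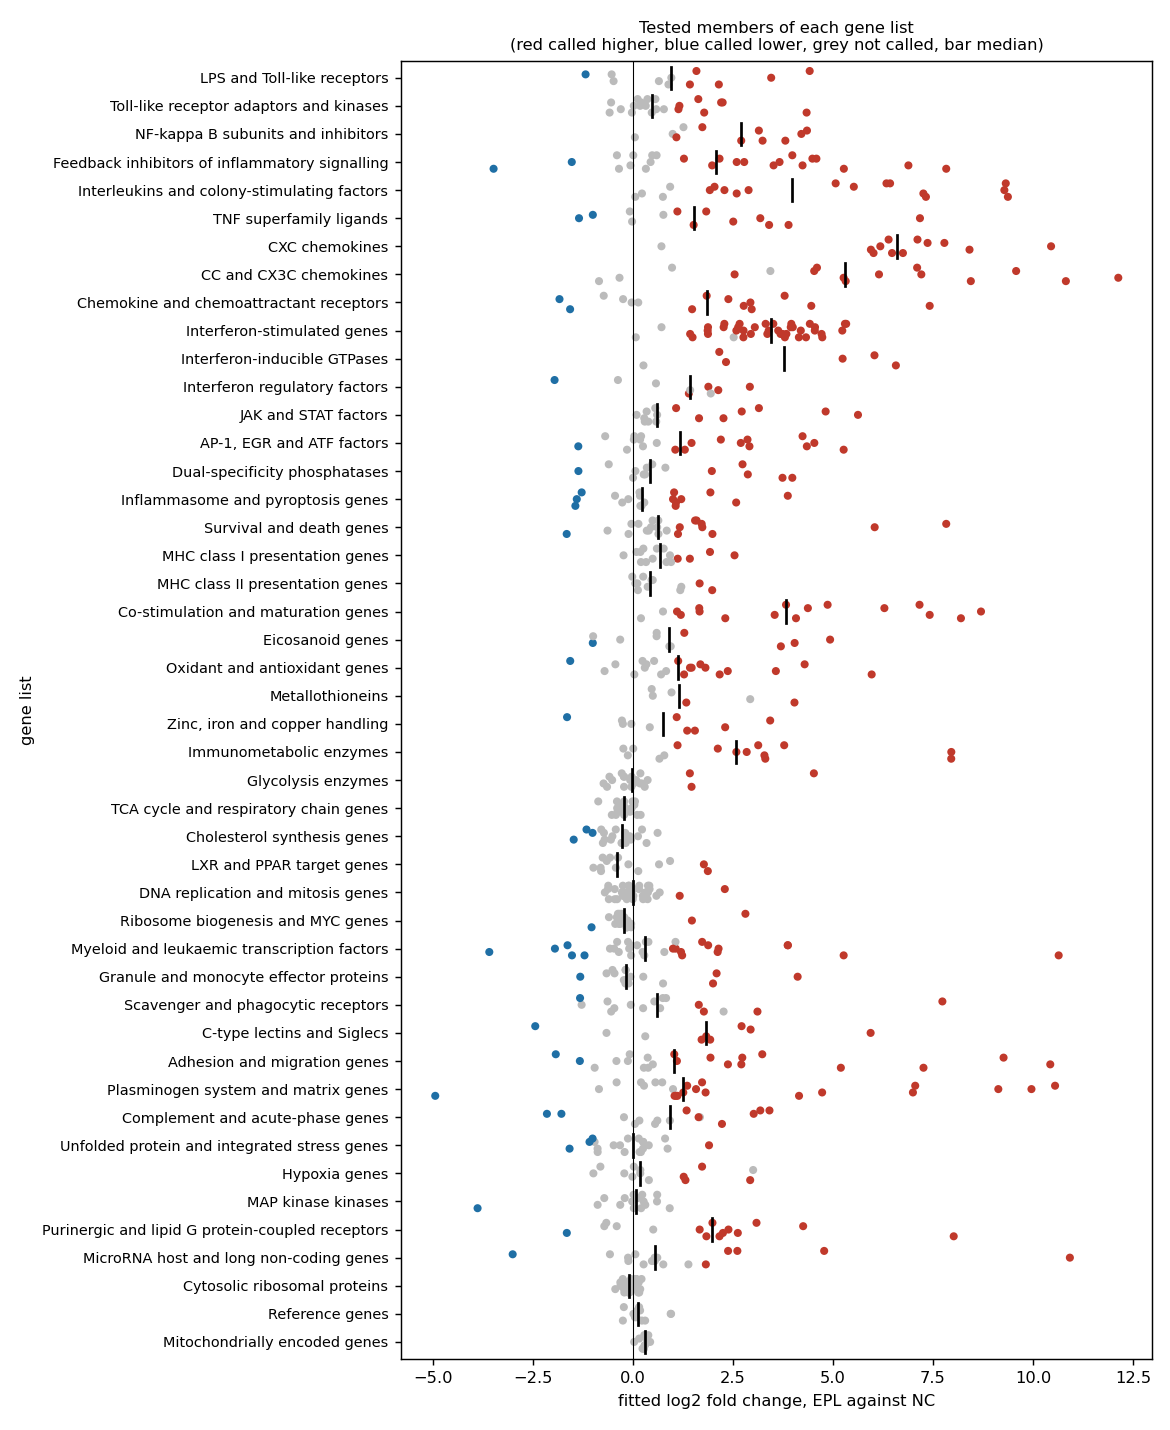
Fitted log2 fold change of EPL against NC (x axis) for the tested members of 46 gene lists (y axis), one point a gene, red where called higher, blue where called lower and grey where not called, with the list median as a black bar. The chemokine, interleukin, co-stimulation and interferon-stimulated gene lists lie to the right, with medians from 3.45 to 6.61, and the ribosomal protein, TCA cycle and replication lists lie around 0.

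The large falls were of a mixed kind. Among genes with at least 1 CPM on average over the 6 libraries and no overlap between EPL and NC, the 10 of largest fitted fall were ENSG00000279359, the multi-copy pseudogene REXO1L1P, SERPINB2, ENSG00000223872, ENSG00000259759, TCF23, NMNAT2, MAP2K6, ENSG00000269243 and RAB37, of which 5 are not protein-coding. TCF23, a helix-loop-helix factor, had 0.197, 0.255 and 0.187 CPM in EPL and 4.1, 3.65 and 4.23 CPM in NC (log2 fold change -4.18 ± 0.44, adjusted p = 5.83e-07). NMNAT2, an NAD-synthesising enzyme, had 0.0656, 0.0637 and 0.187 CPM in EPL and 1.73, 2.06 and 1.97 CPM in NC (log2 fold change -4.07 ± 0.42, adjusted p = 5.64e-07). RAB37, a small GTPase of secretory granules, had 0.197, 0.191 and 0.187 CPM in EPL and 1.92, 2.53 and 2.86 CPM in NC (log2 fold change -3.62 ± 0.55, adjusted p = 4.54e-05). The falling genes of highest level in NC were CA2, ENSG00000227706, FASN, IRF8 and CITED4. CA2 (carbonic anhydrase 2) went from 1920.5, 1923 and 1939.8 to 184, 189 and 191 CPM (log2 fold change -3.36 ± 0.14, adjusted p = 2.62e-12) and CITED4, a transcriptional co-activator, from 1006, 1019.8 and 1096 to 346, 243 and 228 CPM (log2 fold change -1.93 ± 0.21, adjusted p = 7.40e-07). CA2 and IRF8 were nearly equal between the 3 libraries of each group.

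**Figure D4:**
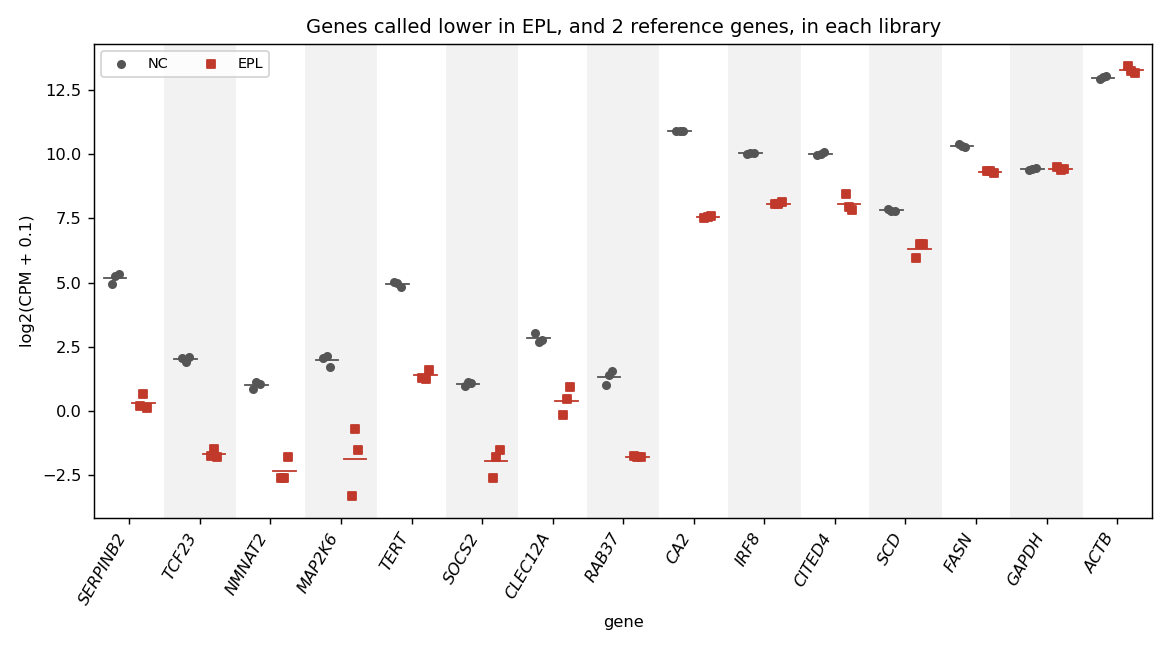
log2(CPM + 0.1) (y axis) of 13 genes called lower in EPL and of the reference genes GAPDH and ACTB, which were not called (x axis), in each of the 3 NC libraries (grey circles) and 3 EPL libraries (red squares), with group means as bars. In the 13 genes the EPL libraries lie below the NC libraries without overlap.

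Of the microRNA host and long non-coding genes 17 of 19 were tested, 5 rose and 1 fell. MIR3142HG, the host of miR-146a, which dampens IRAK1 and TRAF6, had 16.5, 17.4 and 12.6 CPM in EPL and no read in NC, at least 255-fold higher. MIR155HG, the host of miR-155, had 17.8, 15.3 and 18.1 CPM in EPL and 3.78, 6.35 and 4.29 CPM in NC (log2 fold change 1.82 ± 0.20, adjusted p = 8.14e-07). The mature microRNAs themselves were not measured by this assay. Their sequences are shown, from RefSeq (GRCh38.p14), with the seed (bases 2 to 8) in capitals, and they share no seed.
hsa-miR-146a-5p (chr5:160485372-160485393, plus strand): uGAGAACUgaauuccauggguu
hsa-miR-155-5p (chr21:25573983-25574006, plus strand): uUAAUGCUaaucgugauagggguu
LUCAT1 rose from 3.9, 3.53 and 4.65 to 93.2, 120.2 and 119 CPM (log2 fold change 4.78 ± 0.16, adjusted p = 3.02e-13), and with it LINC00926 and SLC9A3-AS1 were the rising long non-coding genes of highest level (1.38 ± 0.09 and 1.14 ± 0.13, the latter not called without EPL1 (0.96)). SLC9A3-AS1 lies opposite SLC9A3, and without a stated strand setting its reads cannot be told from that gene's. MIR22HG and LINC-PINT rose (2.38 and 2.61) and MIR9-3HG fell (-3.004 ± 0.14). The falling ones of highest level were ENSG00000227706, XACT and ENSG00000284719 (-2.74 ± 0.10, -1.08 ± 0.26 and -2.09 ± 0.09), and XACT was not called without EPL1, EPL2, NC1 or NC3 (-1.07 to -0.85). NEAT1 and MALAT1 were not called (0.76 and 0.54). Genes without a read in NC included ENSG00000287097, ETV3L, a repressor of the ETS family, and HPYR1, at least 374, 210.5 and 207-fold higher.

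Called genes lay next to each other in places. Among 17174 tested genes with a position (GENCODE 44, GRCh38) there were 109 runs of 3 or more neighbours that all rose, with 386 genes, and 23 runs that all fell, with 79. The longest held 8 genes on chromosome 11 (117800844 to 118252365), FXYD2, ENSG00000254528, FXYD6, TMPRSS13, IL10RA, SMIM35, JAML and MPZL3. JAML, an adhesion molecule of leukocytes, had 3.54, 3.19 and 2.62 CPM in EPL and 0.448, 0.176 and 0.298 CPM in NC (log2 fold change 3.32 ± 0.32, adjusted p = 2.39e-07), and its neighbour MPZL3 had 11.7, 10.4 and 11.2 CPM in EPL and 3.33, 3.82 and 3.16 CPM in NC (log2 fold change 1.69 ± 0.15, adjusted p = 7.77e-08). A run of 7 on chromosome 11 (35014075 to 35620865) held CD44, the hyaluronan receptor (3.83 ± 0.09), its antisense gene CD44-AS1, SLC1A2 and FJX1, one of 7 on chromosome 12 (89561129 to 92145846) held ATP2B1, EPYC, DCN and BTG1, and one of 7 on chromosome 6 (46220736 to 47309905) held PLA2G7, TDRD6, MEP1A and TNFRSF21. A run of 6 on chromosome 1 (998962 to 1074306) held ISG15, AGRN and RNF223. Several of these genes overlap a neighbour on the other strand, CD44 and ATP2B1 among them, so such runs may count 1 transcript more than once. On chromosome 4 (73740519 to 74303099), a stretch chosen after its values were seen, 6 genes rose in a row, CXCL8, CXCL6, CXCL1, CXCL3, CXCL2 and MTHFD2L, with a median of 6.29.

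Cells given E. coli BEVs isolated by ultracentrifugation at the same dose (EUC) gave the comparison between the isolation methods. In the edgeR quasi-likelihood test 0 of 17198 genes differed between EPL and EUC (smallest adjusted p = 0.947), and DESeq2 called 0 as well. Of the edgeR tests 604 had an unadjusted p of at most 0.05, where 860 would be expected by chance. This number was unstable, at 1721 of 17715 tests without EPL1 and 2232 of 17643 without EUC1. IL1B was at 1351 ± 67.9 CPM in EPL and 1733 ± 234 CPM in EUC (mean ± SD, n = 3; log2 difference -0.36, 95% interval -0.61 to -0.11), and CXCL8 at 1628 ± 45.6 and 1959 ± 355 CPM (-0.27, 95% interval -0.50 to -0.03). TNF differed by -0.51, 95% interval -0.74 to -0.28, IL12B by -0.87, 95% interval -1.25 to -0.50 and IFIT1 by -0.10, 95% interval -0.31 to 0.10. These intervals are not adjusted for the number of genes. They leave room for differences of such sizes, and the absence of calls does not show that the preparations act alike.

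Against S. aureus BEVs isolated in the same way (SPL), 18 genes were higher in EPL (0.105% of those tested) and 3 lower (0.0174%). The species and the dose (1 against 10 μg/mL) changed together and cannot be told apart. IL12B was at 19.8 ± 2.11 CPM in EPL, 6.85 ± 1.8 in SPL and 0.12 ± 0.0562 in NC (log2 difference of EPL from SPL 1.54 ± 0.21, adjusted p = 0.00222). TUBB2A, a tubulin, had 16.4 ± 5.39 CPM in EPL and 5.57 ± 0.617 in SPL (1.55 ± 0.22, adjusted p = 0.00255). IL33, CALCRL, a receptor of calcitonin-like peptides, and ABCA1 followed, with differences of 1.47 ± 0.23, adjusted p = 0.00675, 1.47 ± 0.17, adjusted p = 5.39e-04 and 1.46 ± 0.21, adjusted p = 0.00279. The other 13 included TNFRSF9 (4-1BB), LAMP3, VCAM1 and STAT4, and all 18 had also risen against NC. The 3 genes that were lower in EPL than in SPL were PDK4, PLIN2 and NMNAT2. PDK4, which curbs glucose oxidation, had 0.852 ± 0.0402 CPM in EPL, 0.54 ± 0.397 in EUC, 1.26 ± 0.375 in NC and 8.9 ± 1.57 in SPL (-3.37 ± 0.31, adjusted p = 5.52e-05). PLIN2, a coat protein of lipid droplets, had 78.2 ± 6.33, 75.8 ± 9.31, 49.7 ± 2.16 and 223 ± 24.2 CPM in the same groups (-1.51 ± 0.12, adjusted p = 1.13e-05). Both stood higher in SPL than in the other 3 groups, and neither was called between EPL and NC. These counts were fragile: without EPL1, EPL2 or EPL3 in turn 11, 5 and 11 genes were higher, without SPL1, SPL2 or SPL3 4, 3 and 4, and DESeq2 called 39 higher and 4 lower.

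**Figure D5:**
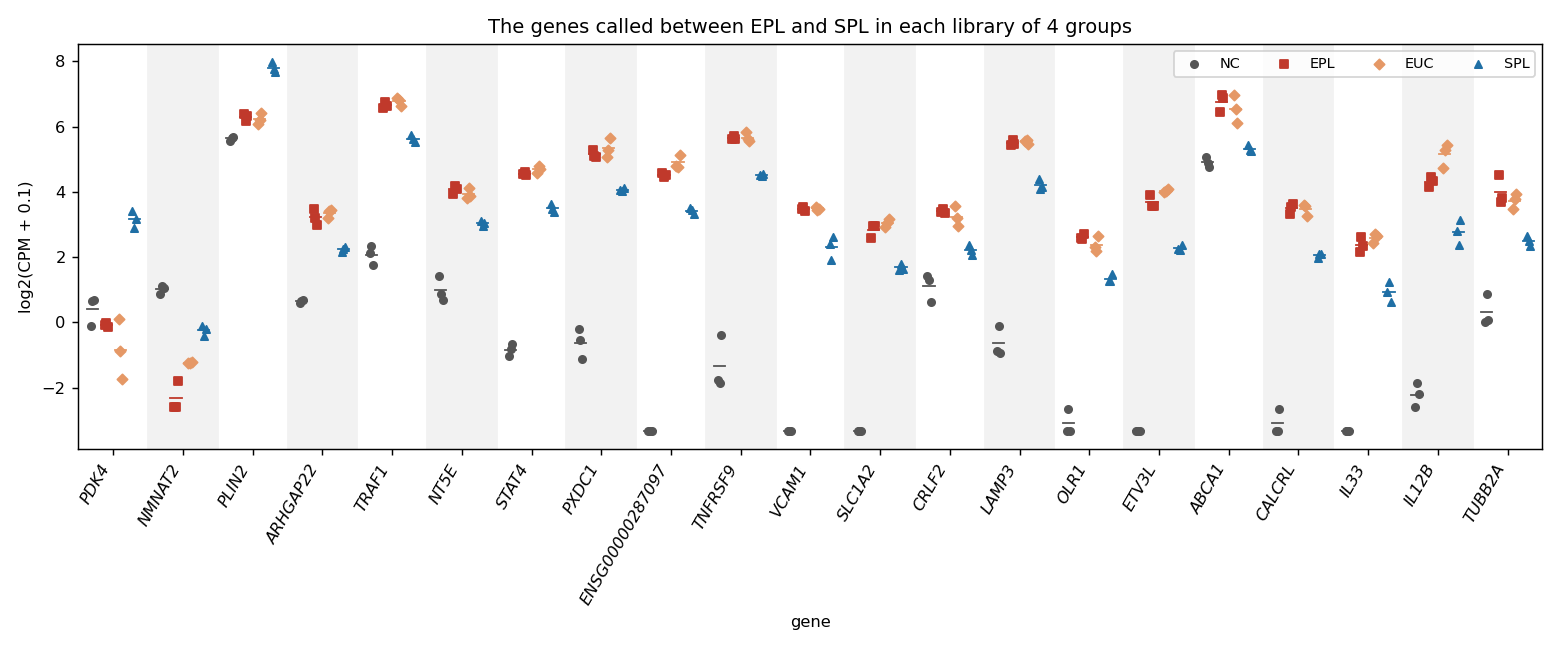
log2(CPM + 0.1) (y axis) of the 21 genes called between EPL and SPL (x axis), ordered by that difference, in the 3 libraries each of NC (grey circles), EPL (red squares), EUC (orange diamonds) and SPL (blue triangles), with group means as bars. In the 18 genes on the right the EPL and EUC libraries lie above SPL, and SPL lies above NC.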

How the data were processed

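The authors deposited one table of read counts per gene (whole numbers, 60286 genes, hg38) for RNA-seq libraries of THP-1 cells. The submitters' processing notes name FastQC 0.11.5, HISAT2 2.1.0, StringTie 1.3.3b, featureCounts and DESeq 1.28.0 without their roles, and neither the annotation release nor the strand setting is stated in them, so reads of overlapping and antisense genes cannot be told apart. Samples were grouped by their labels. Genes with low counts were removed with filterByExpr, which left 17198 genes. Counts were scaled by TMM and fitted with edgeR 4.0.16 (glmQLFit and glmQLFTest, R 4.3.3) over all 15 libraries with group as the only term. Genes with a Benjamini-Hochberg adjusted p of at most 0.01 and a change of at least 2-fold were called. Intervals of read ratios and lower bounds cover counting error only. Intervals of fitted differences come from the SE of the fit and a normal quantile, and are narrower than a t distribution would give. The gene lists, the named genes and the comparisons were chosen with earlier results of these data known. Named genes were marked members of the lists, the called genes of largest change or highest level, and members of the longest runs. Some genes that met these rules are not reported here. DESeq2 1.42.0, other scalings, filters and thresholds, and leaving out each library were run as alternatives. The fit was tested on simulated data of 16790 genes, where 42% of genes changed 2-fold and 88.9% of those changed 4-fold were called, with 0.00603% false calls. A 2-fold change lies on the threshold itself. Only 100 genes were changed 2-fold and 99 4-fold, far fewer than were called between EPL and NC, and no gene-length bias was simulated. These shares are therefore not error rates of the real comparison.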

Additional observations from a re-analysis of the deposited data

How the results depend on the processing

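Calls between EPL and NC were made again in 13 alternatives, not counting the change thresholds. Of the 2498 genes, 1871 (1244 higher and 627 lower) were called in each of them and none was called in the opposite direction. DESeq2 called 1674 higher and 887 lower, of which 2471 were shared. Without the fold threshold 2755 were higher and 2271 lower, and a test against 2-fold (glmTreat) gave 1023 and 286. Leaving out 1 library gave 1504 to 1585 higher and 772 to 885 lower. With only the 6 libraries compared, 16099 genes passed the filter, of which 1500 were higher and 859 lower. Scaling by library size alone moved the median of all genes by -0.12 on the log2 scale and gave 1434 higher and 1122 lower.

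Samples with the same replicate number did not deviate together (correlations -0.169, -0.00611 and -0.069 for numbers 1, 2 and 3). Pairs with unlike numbers ranged from -0.104 to 0.133. With 3 libraries a group and EPL1 apart from the others, this cannot show whether the numbers pair the samples. With the replicate number as a block 1597 genes were higher and 852 lower.

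Between EPL and SPL the counts of 18 higher and 3 lower became 38 and 5 without the filter on low counts, 50 and 16 without the fold threshold, 0 and 1 with glmTreat, 39 higher with DESeq2, and 3 to 11 higher when 1 library was left out. Values close to 0 changed sign in genes that were not called. GAPDH was -0.07 with upper-quartile factors, -0.11 with library size alone, and -0.016 to 0.035 when 1 library was left out. IL18 was -0.023 and RELA -0.032 with upper-quartile factors, and -0.064 and -0.074 with library size alone, and CCR2 was -0.06 to 0.005 when 1 library was left out. Of the 294 genes named with a value, 275 kept their direction and their side of the threshold in the alternatives run. The depth of 14399421 to 15928295 reads leaves genes with few reads, IL6 and IFNB1 among them, imprecise. The causes of these changes were not tested.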
